A study of Mus musculus with 24 samples.

Results

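The response of splenic non-B cells to ionizing radiation in mice without p53 was examined in 4 of the 24 samples of the study, the 2 irradiated and the 2 mock-treated non-B samples of *Trp53*-/- mice. All mice were 8 weeks old and of the C57/Bl6 strain, and irradiated mice had received 7 Gy over the whole body 4 h before the spleens were taken. Red blood cells were lysed, B cells were retained on a magnetic column through B220, and the cells that ran through the column made up the non-B population. The *Trp53*-/- mice carried the deletion allele of *Trp53* in every cell, and the *Trp53*+/+ mice used for comparison came from a commercial breeder. The 2 *Trp53*-/- samples of a condition came from 2 mice and the 4 *Trp53*+/+ samples from 4, per the study's methods.

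Values are RPKM, reads scaled to the length of the gene and to all reads on exons, which the authors computed for 21671 genes in each sample. A gene was tested where its RPKM was above 1 in any of the 4 samples, which held for 13512 genes. Fold changes (log2FC) are differences of log2(RPKM + 0.5), which understates the change of low genes. A differentially expressed gene (DEG) had an adjusted p under 0.05 and a log2FC beyond 0.58 in either direction in limma, fitted over these 4 samples and the 8 *Trp53*+/+ non-B samples, 4 mock-treated and 4 irradiated. With 2 samples against 2, an exact permutation test of a single gene cannot go below p = 0.333, so that the calls rest on a spread estimated over 12 samples.

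p53 is a transcription factor that DNA breaks stabilize through the kinases ATM and CHK2, and its targets arrest the cell cycle or start apoptosis, to which resting lymphocytes of the spleen are prone. Cells without p53 still sense breaks, and other regulators such as NF-kB, the heat-shock factor HSF1 and ATF4 can change their targets after irradiation. The non-B fraction of a spleen is rich in T cells and also holds natural killer (NK) cells, myeloid cells, red cell precursors, megakaryocytes with platelets, and the B cells that the column missed.

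The estimated depth of the 4 samples lay between 7.30 and 10.4 M reads on exons, against 7.05 to 11.005 M over the 12 non-B samples, so that a single read on a 2-kb gene gave an RPKM of 0.0483 to 0.0685. The authors had kept 1 of each set of duplicated reads, and the highest RPKM of a sample lay between 162 and 219, a ceiling that can narrow the differences of the most abundant RNAs. T cell markers summed to 1287, 1098, 1026 and 1318 RPKM in mock 1, mock 2, irradiated 1 and irradiated 2, and B cell markers to 455, 551, 690 and 511, against 1019 to 1209 in the 4 *Trp53*-/- B samples. The non-B fraction thus still carried B cell RNA at a sizeable level. *Mmrn1*, a gene of platelets, was at 0 in 16 of 16 *Trp53*+/+ samples of the study and above 0 in 8 of 8 *Trp53*-/- samples. Whether the genotypes also differed in genetic background was not tested, and such a difference cannot be told apart from that of *Trp53* in any comparison between them.

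*Trp53* RNA itself was not absent from the *Trp53*-/- samples. The gene stood at 24.0 and 25.0 RPKM in the mock samples and at 34.6 and 36.4 after irradiation, below the 43.4 to 49.5 of the *Trp53*+/+ mock samples. One value per gene does not show which exons the reads came from, so this level says nothing about the deleted part of the gene. The log2FC of *Trp53* in *Trp53*-/- cells was 0.53 ± 0.09 (SE, adjusted p = 0.0362), under the threshold on the fold change, whereas the *Trp53*+/+ samples moved the other way (log2FC -0.33, adjusted p = 0.00688), and the responses differed (adjusted p = 0.0019).

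The canonical targets of p53 showed the genotype plainly. *Cdkn1a*, the inhibitor of cyclin-dependent kinases that p53 induces in most cells, had 1.38 and 2.35 RPKM in the *Trp53*-/- mock samples and 2.42 and 2.63 after irradiation, against 69.6 to 88.3 in the irradiated *Trp53*+/+ samples. *Phlda3*, which restrains AKT, was at 0.074 and 0.551 RPKM in the mock samples and at 0.131 and 0.092 after irradiation and reached 65.8 to 72.6 in irradiated *Trp53*+/+ cells. *Mdm2*, the ubiquitin ligase of p53, was between 28.8 and 30.7 in the 4 samples, with no separation of irradiated from mock. Of 29 tested genes of a list of p53 targets, 1 rose and none fell, beside 30 of all 13512 genes that rose (0.222%) and 40 that fell (0.296%), and the median log2FC of the list was 0.05 against -0.01 for all genes. In *Trp53*+/+ cells 20 of the 29 rose (4.77% of all genes did), with a median of 1.25, and the response of 19 of the 29 differed between genotypes (6.82% of all genes).

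The target that rose without p53 was *Aen*, which encodes a nuclease that degrades DNA in apoptosis. It lies on chr7:86040740-86056095 (plus strand, mm9). Its RPKM was 20.2 and 19.5 in the mock samples and 35.8 and 31.6 after irradiation, so that both irradiated samples lay above both mock samples. The log2FC was 0.74 ± 0.11 (SE, adjusted p = 0.0239), less than the 1.75 of *Trp53*+/+ cells, where irradiated samples held 78.6 to 83.0 RPKM (adjusted p of the difference = 0.00208). *Aen* also rose in *Trp53*-/- B cells, from 22.9 and 22.8 to 53.7 and 49.0. Without mock 2, mock 1 or irradiated 1 the adjusted p in non-B cells was 0.189, 0.0668 and 0.161. *Bax*, the pore-forming killer of mitochondria, had the next smallest p of the list, with 24.1 and 23.1 RPKM before and 32.7 and 29.8 after irradiation (log2FC 0.39, adjusted p = 0.0948).

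The start of *Aen* is shown because it is the target that moved without p53. The RefSeq promoter table (GRCm38.p6) gives it more than 1 start, and the window of the second, on the plus strand at chr7:78895808-78896087, runs from 250 bases before the start to 30 after it. Capitals mark the match to a p53 half-site, the 10-base unit of which p53 binding sites are made.

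Aen: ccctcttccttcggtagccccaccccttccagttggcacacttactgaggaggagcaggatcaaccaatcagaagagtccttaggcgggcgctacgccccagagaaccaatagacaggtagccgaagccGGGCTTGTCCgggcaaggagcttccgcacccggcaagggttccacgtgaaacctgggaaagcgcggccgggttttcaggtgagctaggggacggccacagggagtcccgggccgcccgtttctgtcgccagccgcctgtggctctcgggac

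The match begins 121 bases before this start. The windows overlap, and the match 11 bases after the first start is the same site. A half-site was found on either strand in 8.36% of all 32851 promoter windows of the table, which reach 50 bases past the start. The share was 6.82% of the 12532 windows of genes tested and 17.1% of the 35 windows of the genes that rose. Of the 30 genes that rose, 25 were matched by symbol and 4 held a half-site, since overlapping windows count a site more than once. A match of letters is a description and does not show binding.

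The response left without p53 was small. The 30 genes that rose and the 40 that fell made 0.518% of the genes tested, against 1201 DEGs (8.89%) for the same genes in *Trp53*+/+ cells, where each group held 4 samples instead of 2 and the median SE of a log2FC was 0.13 instead of 0.19. At an unadjusted p under 0.05 there were 2236 genes (16.5%). With the 4 samples alone in the fit, limma called 0 genes (1977 at an unadjusted p under 0.05, smallest adjusted p 0.212), and without the irradiated *Trp53*+/+ samples it called 5, so that the calls need the spread of the *Trp53*+/+ groups. Without mock 1, mock 2, irradiated 1 or irradiated 2 there were 30, 3, 3 and 33 DEGs, and 1 of the 70, *Slc26a3*, was called in all 4 of these fits, so that each other DEG lost its call without at least 1 of the samples. With the replicate number as a block 18 genes were called, 14 of them among the 70. The *Trp53*+/+ samples mattered as well, with 17, 40 and 31 DEGs without mock 2, mock 4 and irradiated 3 of that genotype. The split of 30 up and 40 down became 49 and 40 with median-ratio scaling, and 60 and 34 with quantile normalization.

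The mock samples were farther from each other than the irradiated samples were. The distance between samples, taken as 1 minus the Spearman correlation over the genes tested, was 0.0300 between the mock samples and 0.0162 between the irradiated samples. Mock 1 lay closer to irradiated 2 (0.0208) than to mock 2 and about as far from irradiated 1 (0.0327), and the largest distances were those of mock 2 to irradiated 1 (0.0414) and irradiated 2 (0.0445). More than 2-fold differences were seen for 610 genes between the mock samples and for 210 between the irradiated ones.

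Agreement between the numbered pairs was accordingly limited. The difference of irradiated 1 to mock 1 and that of irradiated 2 to mock 2 had the same sign for 58.9% of the 13512 genes, with r = 0.193 and rho = 0.236 across genes, which are not independent replicates. With the mock samples exchanged, the share was 67.7%, with r = 0.435 and rho = 0.504. Both irradiated samples lay above both mock samples for 24.2% of the genes and below both for 25.1%. The plot of both pairings shows the DEGs away from the origin in the same direction on both axes, which the choice of these genes fixes, within a cloud that stretches along the second axis in the numbered pairing, where mock 2 enters.

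**Figure D1:**
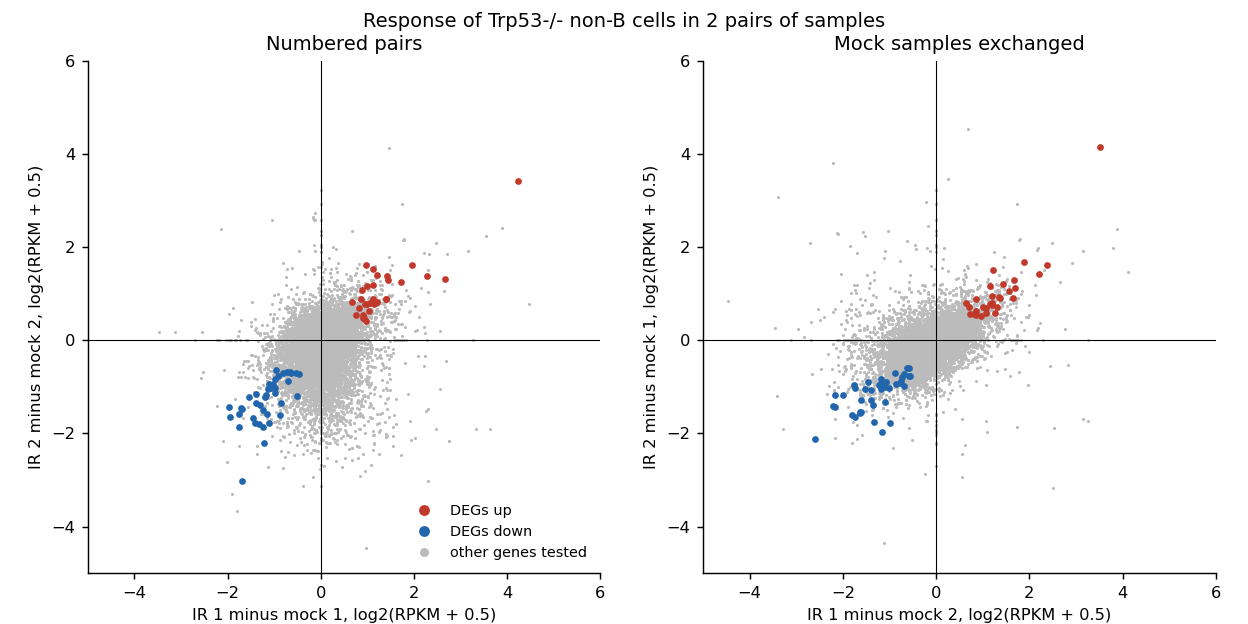
Each point is a gene tested in *Trp53*-/- non-B cells, placed by the difference of log2(RPKM + 0.5) between irradiated 1 and a mock sample (x axis) and between irradiated 2 and the other mock sample (y axis), for the numbered pairs (left) and with the mock samples exchanged (right). The 30 DEGs up (red) and 40 down (blue) lie in the upper right and lower left, and the correlation across all genes was 0.193 on the left and 0.435 on the right.

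The gene that stood out most was *Slc26a3*, a chloride and bicarbonate exchanger best known from the gut (chr12:32075736-32158782, plus strand, mm9). It was listed at 0 and 0.331 RPKM in mock 1 and mock 2 and at 8.95 and 8.37 after irradiation. The *Trp53*+/+ samples held at most 0.245, irradiated or not, so that the 2 samples stood apart from the other 10. Its log2FC was 3.83 ± 0.25 (SE, adjusted p = 9.16e-05), it differed from the response of *Trp53*+/+ cells (adjusted p = 0.000165), and it was the only DEG that was called with each of the 12 samples left out in turn (adjusted p 6.13e-05 to 0.00246 without a *Trp53*-/- sample). In *Trp53*-/- B cells the gene was at 0.035 and 0.036 in the mock samples and at 10.5 in irradiated 1, but at 0.034 in irradiated 2.

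The gene that faces it end to end on the other strand, *Cbll1*, which encodes a ubiquitin ligase of E-cadherin, rose as well, from 19.4 and 19.7 to 33.2 and 29.1 RPKM (log2FC 0.65 ± 0.12, adjusted p = 0.0387). The annotated ends of the pair are 11375 bases apart. Since the library kit does not mark strand, reads beyond the annotated end of a gene cannot be assigned to it by strand. Among the 68 DEGs with a position, 2 further pairs had ends within 20 kb, *Hsph1* and *Wdr95* (2391 bases, end to end) and *Nop2* and *Iffo1* (487 bases, head to tail), and in both of these 1 gene rose and the other fell.

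Chaperones of the heat-shock response rose next to it. *Hsph1* (chr5:150416862-150438951, minus strand, mm9), the HSP110 that recharges HSP70 with ATP, had 15.8 and 16.5 RPKM in the mock samples and 53.4 and 39.7 after irradiation. Both irradiated samples lay above all other non-B samples, and the *Trp53*+/+ samples went down, from 18.5 to 27.3 in mock to 8.18 to 11.3 in irradiated cells. The log2FC was 1.48 ± 0.20 in *Trp53*-/- and -1.08 in *Trp53*+/+ cells (adjusted p = 0.0156 and 0.000523), and the difference between them had an adjusted p of 0.00023.

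*Dnajb1* (chr8:86132074-86135801, plus strand, mm9), the HSP40 that hands clients to HSP70, had 37.3 and 35.7 RPKM before and 72.0 and 61.3 after irradiation. Its log2FC was 0.86 ± 0.09 (adjusted p = 0.00647), against -0.36 in *Trp53*+/+ cells, again with a difference between the genotypes (adjusted p = 0.00023). The inducible HSP70 genes showed the largest fold of the list, with unequal values in the irradiated samples. *Hspa1b* went from 1.399 and 1.398 to 27.5 and 9.50 RPKM and *Hspa1a* from 1.33 and 1.03 to 20.7 and 6.73, and the log2FC of 3.14 ± 0.65 and 2.89 ± 0.62 did not pass (adjusted p = 0.0638 and 0.0664). Unlike *Hsph1* and *Dnajb1*, they did not go down in *Trp53*+/+ cells, where *Hspa1a* rose from 1.34 to 5.92 in mock to 6.10 to 18.6 in irradiated samples (log2FC 1.56, adjusted p = 0.0321) and *Hspa1b* had a log2FC of 1.13 (adjusted p = 0.105), and neither response differed between genotypes by the test (adjusted p = 0.299 and 0.144). These 2 genes are near-identical copies, and how the authors' counting divided reads between them is not known.

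Over the list of 13 chaperones, 2 rose (0.222% of all genes did) and none fell, and 12 had a log2FC above 0 (47.6% of all genes). The median was 0.61, against -0.11 in *Trp53*+/+ and 0.62 in *Trp53*-/- B cells. Both irradiated samples were above both mock samples for 12 of the 13 (24.2% of all genes). They were above the other 10 non-B samples for 9 of the 13 (11.5% of all genes). The response of 6 of the 13 differed between genotypes (6.82% of all genes). Summed over the list, the samples held 581 and 652 RPKM in mock and 879 and 850 after irradiation, where no *Trp53*+/+ sample exceeded 655. The median of the list was 0.38 without mock 1. Without mock 2, the adjusted p was 0.149 for *Hsph1* and 0.0951 for *Dnajb1*, and without irradiated 1 it was 0.139 and 0.0558.

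Other DEGs that assist folding were not on the list and were singled out after their values were seen. *St13*, which holds HSP70 in its client-bound state, went from 37.4 and 44.9 to 70.2 and 65.2 RPKM, and *Cct3*, a subunit of the TRiC chaperonin, from 30.3 and 35.6 to 58.2 and 49.7 (log2FC 0.72 and 0.70, adjusted p = 0.0436 and 0.044). Both differed from *Trp53*+/+ cells, where the log2FC was -0.30 and -0.37 (adjusted p of the difference 0.00608 and 0.00424). The other 7 subunits of TRiC had a log2FC between 0.24 and 0.43 and none was called.

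The starts of *Hsph1*, *Dnajb1* and *Hspa1b* are shown because the first pair are the chaperones that rose and the last had the largest fold of the list without passing. The windows are from the RefSeq promoter table (GRCm38.p6), from 250 bases before a start to 30 after it, at chr5:149636286-149636565 on the minus strand, chr8:83607925-83608204 on the plus strand and chr17:34959209-34959488 on the minus strand. Capitals mark GAANNTTC, a pair of the inverted units that heat-shock factors bind, which reads the same on both strands.

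Hsph1: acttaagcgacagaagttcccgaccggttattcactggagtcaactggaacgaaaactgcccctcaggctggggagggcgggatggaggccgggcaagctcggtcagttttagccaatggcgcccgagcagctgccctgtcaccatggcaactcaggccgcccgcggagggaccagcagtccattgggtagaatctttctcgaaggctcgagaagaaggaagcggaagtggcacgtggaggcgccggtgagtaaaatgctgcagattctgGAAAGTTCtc

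Dnajb1: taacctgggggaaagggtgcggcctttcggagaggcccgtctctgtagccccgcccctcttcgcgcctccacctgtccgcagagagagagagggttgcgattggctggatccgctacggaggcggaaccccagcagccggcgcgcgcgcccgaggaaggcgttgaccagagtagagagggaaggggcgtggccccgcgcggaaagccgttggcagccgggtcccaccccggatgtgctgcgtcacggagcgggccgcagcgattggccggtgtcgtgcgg

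Hspa1b: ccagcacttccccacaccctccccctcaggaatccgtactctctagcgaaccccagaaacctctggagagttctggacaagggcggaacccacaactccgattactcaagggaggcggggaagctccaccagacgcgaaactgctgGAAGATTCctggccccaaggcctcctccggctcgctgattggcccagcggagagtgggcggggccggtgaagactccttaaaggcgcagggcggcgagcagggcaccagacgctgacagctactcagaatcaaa

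GAANNTTC lay 104 bases before the start of *Hspa1b* and 21 bases after this start of *Hsph1*, and these letters are not in the windows of *Dnajb1*. From the other start of *Hsph1* the same element lies 42 bases downstream, past the stretch of 30 bases used for printing. It was found in 9 of the 15 windows of the list (60.0%), for 8 of 10 genes matched, against 7.86% of all windows of the table and 6.08% of the 12532 windows of genes tested. Of the 35 windows of genes that rose, 14.3% held it (4 of 25 genes matched). Of the 34 windows of genes that fell, 14.7% did (5 of 28 genes matched).

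**Figure D2:**
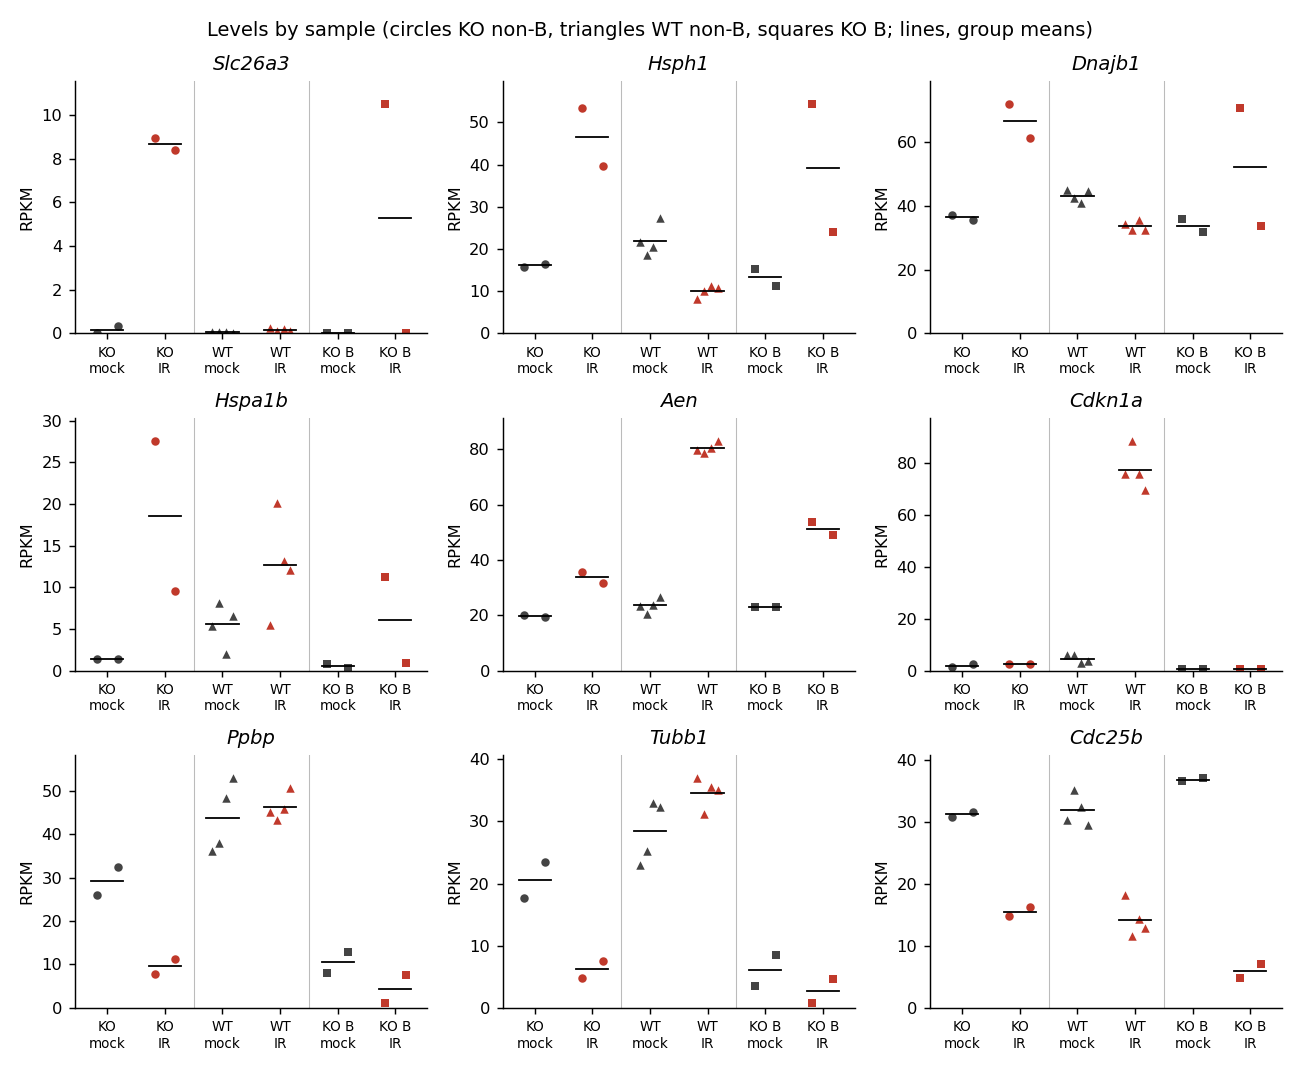
RPKM (y axis, linear) of 9 genes in each sample of *Trp53*-/- (KO) non-B cells (circles), *Trp53*+/+ (WT) non-B cells (triangles) and *Trp53*-/- B cells (squares), mock in grey and irradiated in red, with lines at group means. *Slc26a3*, *Hsph1* and *Dnajb1* were high in both irradiated KO non-B samples and in irradiated 1 of the KO B samples, *Cdkn1a* stayed at or under 2.63 in KO non-B cells, and *Ppbp* and *Tubb1* were lower in both irradiated than in both mock KO non-B samples.

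In *Trp53*-/- B cells the irradiated samples differed in these genes. There *Hsph1* had 15.4 and 11.3 RPKM in mock, 54.4 in irradiated 1 and 24.1 in irradiated 2, and *Dnajb1* had 35.9, 31.7, 70.8 and 33.8. *Hspa1b* had 11.3 in irradiated 1 and 0.954 in irradiated 2. Irradiated 1 of the B cells was thus far above both mock samples for all 3 genes, and irradiated 2 was not for *Dnajb1* and *Hspa1b*. The labels do not say which B and non-B samples came from the same spleen.

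Among the other DEGs that rose, 5 encode factors of ribosome assembly, for which no list had been set up and which were singled out after their values were seen. *Rrp12*, a factor in the export of ribosomal subunits, had 12.5 and 11.6 RPKM in mock and 29.3 and 21.0 after irradiation (log2FC 1.01 ± 0.18, adjusted p = 0.0401). *Nop16*, a nucleolar protein, went from 15.7 and 14.9 to 35.0 and 27.8, and *Mdn1*, the giant ATPase that strips factors off the large subunit, from 28.8 and 22.9 to 53.5 and 48.6. *Rrp1b* and *Nop2*, the latter a methyltransferase of ribosomal RNA, rose with a log2FC of 0.83 and 0.70 (adjusted p = 0.0426 and 0.0471).

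In all 5 of these genes irradiated 1 was higher than irradiated 2. Of the 30 DEGs that rose, 26 had their higher value in irradiated 1, against 19 of the 40 that fell. That share was not computed over all genes tested, so that a general difference between the 2 samples was not tested. The other 20 tested genes with symbols of the *Nop*, *Rrp* and *Utp* series all had a log2FC above 0, with a median of 0.35 (-0.12 in *Trp53*+/+ cells), and none was called, the smallest adjusted p being 0.0718. In *Trp53*-/- B cells *Rrp12* rose as well, from 11.8 and 10.8 to 42.8 and 42.1 RPKM, in both irradiated samples alike, and the response did not differ between the cell types by the test (adjusted p = 0.0772). The 81 cytosolic ribosomal proteins tested had a median log2FC of 0.10, with 73 above 0 and none called.

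Modification of RNA and supply of building blocks were represented by single genes. *Pus7*, a pseudouridine synthase, had 10.8 and 11.3 RPKM before and 29.3 and 21.2 after irradiation (log2FC 1.14 ± 0.19, adjusted p = 0.0324), and *Shmt1*, the cytosolic enzyme that passes the carbon of serine to folate, 14.01 and 11.98 before and 29.6 and 21.1 after (log2FC 0.92, adjusted p = 0.0362). *Slc1a4*, a transporter of serine and other neutral amino acids, was at 0.501 and 0.736 and reached 5.89 and 2.55 (log2FC 1.99 ± 0.36, adjusted p = 0.0387), while *Trp53*+/+ samples did not exceed 1.66. All 3 differed from the *Trp53*+/+ response (adjusted p 0.00634, 0.0354 and 0.0208), and all 3 also rose in *Trp53*-/- B cells, where *Slc1a4* went from 0.417 and 0.837 to 14.3 and 11.6. The response of none of the 3 passed the test of the difference between cell types (adjusted p = 0.0609, 0.0756 and 0.137).

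*Slc1a4* is among the genes that ATF4 is known to drive in amino-acid stress, but the list of such genes used here did not hold it. Of 14 tested members of that list, none was called, 13 had a log2FC above 0 and the median was 0.36. The median was -0.01 in *Trp53*+/+ cells and 0.76 in *Trp53*-/- B cells, where 7 of the 14 rose (12.5% of all genes did). For 11 of the 14 both irradiated samples lay above both mock samples, and for none below both (24.2% and 25.1% of all genes). Without irradiated 1 the median was 0.20. The member with the smallest p was *Shmt2*, the mitochondrial partner of *Shmt1*, with 36.2 and 33.7 RPKM in mock and 70.6 and 54.0 after irradiation (adjusted p = 0.054). The summed level of the list was 277 and 290 RPKM in mock and 388 and 328 after irradiation.

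The remaining genes among the 15 of largest increase were low. *Lrrc16b*, a regulator of actin capping, went from 0.917 and 0.971 to 6.34 and 3.30 RPKM, and it was one of 3 DEGs up that also rose in *Trp53*+/+ cells (log2FC 1.82 and 1.74, adjusted p of the difference 0.92). *Neto2*, an accessory subunit of kainate receptors, was another of the 3 (1.97 and 1.55 to 6.13 and 4.84, with a log2FC of 0.74 in *Trp53*+/+ cells), and *Aen* was the third. *1700016C15Rik*, *Slc23a3* (a member of the ascorbate transporter family), *Astl* (an egg protease), *Naalad2* (a peptidase) and *Nrn1l* (a relative of neuritin) all lay between 0.955 and 1.80 RPKM in the mock samples and between 3.27 and 5.38 after irradiation, with log2FC between 1.16 and 1.78.

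*Psd*, an exchange factor of ARF6, went from 4.42 and 4.51 to 12.4 and 8.69, and *Aoc2*, an amine oxidase, from 13.6 and 11.7 to 27.5 and 26.7. *Snora64*, a small nucleolar RNA of 134 bases inside *Rps2*, had 35.5 and 21.7 before and 69.7 and 67.2 after irradiation, and its reads cannot be told apart from those of its host gene. Exons of *Nrn1l* overlap those of *Edc4*, and those of *Psd* overlap *Nfkb2* on the other strand, so that their values are uncertain. Of the 29 DEGs up with a position, 10 (34.5%) began within 10 kb of the end of another tested gene on the same strand, among them *Astl* (263 bases after *Dusp2*), *Lrrc16b* (755 bases after *Dhrs4*) and *Aoc2* (1526 bases after *Psme3*), against 18.5% of all genes tested and 12.8% of the DEGs down.

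The 40 genes that fell included genes known from platelets and from mast cells. *Ppbp*, a platelet chemokine and a member of the list of megakaryocytes and platelets, had 26.1 and 32.3 RPKM in mock and 7.72 and 11.3 after irradiation, whereas the *Trp53*+/+ samples lay between 36.2 and 52.9 with and without irradiation. Its log2FC was -1.58 ± 0.20 (adjusted p = 0.014), and it differed from the 0.09 of *Trp53*+/+ cells (adjusted p = 0.00398). *Tubb1*, the tubulin of platelets, fell from 17.6 and 23.5 to 4.84 and 7.52 (log2FC -1.67 ± 0.22, adjusted p = 0.015), against 31.1 to 37.0 in irradiated *Trp53*+/+ cells. In bulk RNA, fewer cells of a type and less RNA per cell cannot be told apart.

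Of 11 tested genes of the platelet list, 1 fell (0.296% of all genes did) and none rose, and 10 had a log2FC below 0 (52.4% of all genes). The median was -1.01, against 0.14 in *Trp53*+/+ cells. Both irradiated samples lay below the other 10 non-B samples for 9 of the 11 (9.8% of all genes). The summed level was 91.0 and 108 RPKM in mock and 52.2 and 65.0 after irradiation, and the *Trp53*+/+ samples held 109 to 156. *Pf4* and *Gp9* fell short of the threshold (10.025 and 14.5 to 3.75 and 6.91, and 5.12 and 9.26 to 2.01 and 3.34, adjusted p = 0.137 and 0.075). Without mock 2 the adjusted p of *Ppbp* and *Tubb1* was 0.168 for both, and without irradiated 1 it was 0.114 and 0.116.

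Outside the list, *Clec1b* (the platelet receptor for podoplanin), *Gng11* (a G protein subunit) and *Myl9* (a light chain of myosin), which are also abundant in platelets, fell with a log2FC of -1.38, -1.82 and -1.80 (adjusted p = 0.0401, 0.0351 and 0.0401). Exons of *Clec1b* overlap those of *Clec9a*, a gene of the dendritic cell list, on the same strand, so that its value is uncertain. The values of *Gng11* were 4.31, 6.08, 0.918 and 1.30 RPKM in mock 1, mock 2, irradiated 1 and irradiated 2, with 7.03 to 13.7 in *Trp53*+/+ cells. *Mmrn1*, multimerin of platelets, fell from 2.16 and 2.74 to 0.67 and 0.924 (adjusted p = 0.0324). It was listed at 0 in all *Trp53*+/+ samples, as given above, so that no genotype difference can be read from it.

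The list of mast cells and basophils was also lower, its sum going from 33.0 and 58.5 RPKM in mock to 21.0 and 17.4 after irradiation. *Ms4a2*, a subunit of the receptor for immunoglobulin E, had 4.86 and 4.58 before and 1.14 and 1.34 after irradiation, and *Gata2*, a transcription factor of mast cells and progenitors, 6.41 and 6.93 before and 2.43 and 1.54 after (log2FC -1.59 and -1.55, adjusted p = 0.0239 and 0.0351). These 2 of 6 tested members fell (0.296% of all genes did), and all 6 had a log2FC below 0 (52.4% of all genes). The median was -1.28, against -0.60 in *Trp53*+/+ cells. *Ms4a2* and *Gata2* also fell in *Trp53*+/+ cells (log2FC -0.63 and -0.81, adjusted p = 0.0256 and 0.0147), and neither response differed between genotypes by the test (adjusted p = 0.0717 and 0.184). *Trp53*+/+ mock samples ran from 22.4 to 84.6 in summed level, so that this list varied widely without irradiation.

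*Cyp11a1*, which cleaves the side chain of cholesterol, fell in both genotypes, from 4.43 and 3.71 to 0.757 and 1.07 RPKM in *Trp53*-/- cells (log2FC -1.70, against -0.60 in *Trp53*+/+ cells). *Cdh1*, E-cadherin, went from 3.64 and 4.08 to 1.01 and 0.931 (log2FC -1.57, adjusted p = 0.0166), and its log2FC of -0.57 in *Trp53*+/+ cells was just under the threshold on the fold change (adjusted p of the difference 0.0439). *Hrh4*, a histamine receptor, fell from 1.95 and 2.35 to 0.413 and 0.333. None of these 3, nor *Ms4a2* or *Gata2*, was above 0.639 RPKM in any *Trp53*-/- B sample.

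Of the other genes of largest decrease, *Slco2b1*, an organic anion transporter, had the largest log2FC (-2.36 ± 0.43, adjusted p = 0.0401) but the mock samples differed, with 3.73 and 7.42 RPKM before and 0.799 and 0.48 after irradiation. *Jup*, plakoglobin, fell from 5.58 and 8.68 to 2.12 and 1.499, *Tnfsf12*, the cytokine TWEAK, from 4.00 and 5.87 to 1.58 and 1.36, and *Sele*, E-selectin, from 11.5 and 7.70 to 3.62 and 3.02. *Sele* also fell in *Trp53*-/- B cells, from 10.9 and 10.04 to 0.311 and 0.921, and the difference between cell types did not pass (adjusted p = 0.0624). *Olfr101*, an odorant receptor gene, fell from 2.59 and 2.24 to 0.724 and 0.292, a low level for a gene with only 1039 bases of exon.

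No NK cell gene passed the test. All 10 tested genes of the list had both irradiated samples below both mock samples (25.1% of all genes), with a median log2FC of -0.60. *Ncr1*, the activating receptor NKp46, had 62.7 and 59.1 RPKM in mock and 30.4 and 34.8 after irradiation (adjusted p = 0.103), and *Gzmb*, granzyme B, 27.9 and 25.5 before and 17.3 and 13.0 after (adjusted p = 0.0807). The sum of the list went from 530 and 477 to 326 and 376, against 352 to 561 in *Trp53*+/+ samples. *Klrg1*, an inhibitory receptor of NK and effector T cells, was not on the list and fell, from 11.9 and 13.7 to 5.78 and 6.48 (log2FC -1.001, adjusted p = 0.0239).

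**Figure D3:**
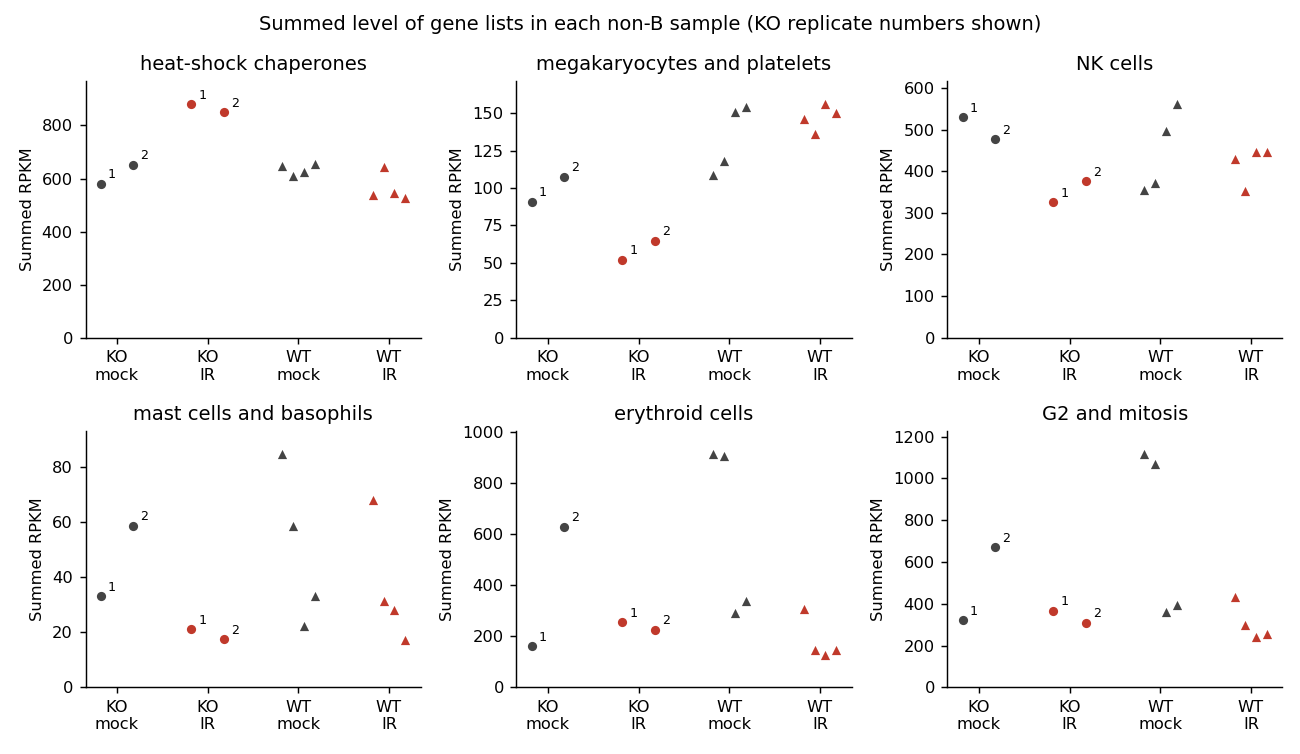
Summed RPKM (y axis, linear, from 0) of 6 gene lists in each non-B sample, *Trp53*-/- (KO, circles, with replicate numbers) and *Trp53*+/+ (WT, triangles), mock in grey and irradiated in red. Chaperones were higher and platelet genes lower in both irradiated KO samples than in any other sample, and mock 2 was well above mock 1 for red cell genes (629 and 162) and for genes of G2 and mitosis (670 and 322).

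Genes of dividing cells and of red cell precursors differed more between the mock samples than between treatments. The genes of G2 and mitosis summed to 322 and 670 RPKM in mock 1 and mock 2 and to 366 and 309 in the irradiated samples, and the red cell genes to 162, 629, 256 and 226. In the first numbered pair the median of the red cell list was 1.20 on the log2 scale and in the second -1.76. The *Trp53*+/+ mock samples also ranged widely, from 360 to 1117 for the first list and from 290 to 914 for the second. The fitted medians of -0.45 and -0.31 changed sides with the mock sample left out, to -1.04 and -1.56 without mock 1 and to 0.12 and 1.05 without mock 2, whereas *Trp53*+/+ cells had -1.23 and -2.35.

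**Figure D4:**
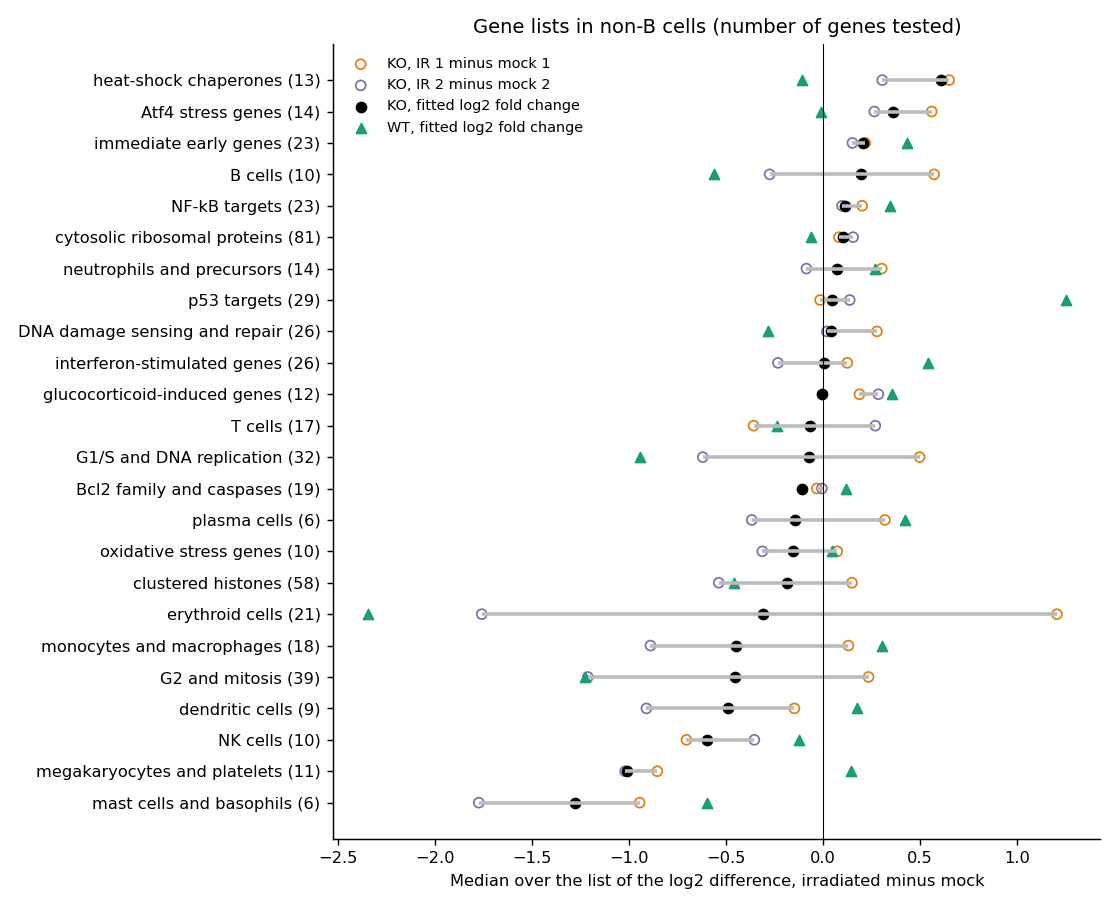
Median over each gene list (y axis, with the number of genes tested) of the log2 difference between irradiated and mock non-B cells (x axis): fitted log2 fold change in *Trp53*-/- (KO, black) and *Trp53*+/+ cells (WT, green triangles), and the differences of the numbered KO pairs (open circles, joined by grey lines). The pairs lie on the same side of 0 for chaperones, ATF4 genes, NK cells, platelets and mast cells and on opposite sides for red cell, G2 and mitosis, and G1/S genes.

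*Cdc25b*, the phosphatase that starts the activation of CDK1, was the exception among the 39 genes of G2 and mitosis. It stood at 30.8 and 31.6 RPKM in the mock samples and at 14.8 and 16.2 after irradiation, a narrow spread in both groups (log2FC -0.99 ± 0.17, adjusted p = 0.0362). It also fell in *Trp53*+/+ cells (log2FC -1.15, adjusted p = 0.000118, difference adjusted p = 0.663), and more in *Trp53*-/- B cells, from 36.6 and 37.0 to 4.81 and 7.02 (adjusted p of the difference between cell types = 0.0397). Its call in non-B cells was lost without any 1 of the 4 samples (adjusted p 0.0872 to 0.239). *Ccnb1*, cyclin B1, by contrast had 5.33 and 20.2 in mock and 5.17 and 3.98 after irradiation (adjusted p = 0.533). None of 32 genes of G1/S and DNA replication was called (median -0.08, against -0.95 in *Trp53*+/+ cells).

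Immediate early genes, NF-kB targets and interferon-stimulated genes held no DEG. With 0.518% of all genes called, lists of this size can hold none without differing from the rest. Of 23 immediate early genes tested none was called, with a median of 0.20. Both irradiated samples lay above both mock samples for 13 of the 23 and below both for 3 (24.2% and 25.1% of all genes). *Jun*, a subunit of AP-1, had 9.21 and 8.96 RPKM before and 27.4 and 21.4 after irradiation, a log2FC of 1.37 ± 0.30 that did not pass (adjusted p = 0.0718) and was close to the 1.42 of *Trp53*+/+ cells (adjusted p of the difference = 0.947). Of 23 NF-kB targets none was called (median 0.11), and for 10 of them both irradiated samples lay above both mock samples, for 4 below both. *Cd83*, an activation marker with the smallest p among them, went from 39.3 and 37.4 to 81.9 and 58.6 (adjusted p = 0.0675). Interferon-stimulated genes had a median of 0.00 over 26 genes with none called, and the response of *Mx1*, an antiviral GTPase, differed between genotypes, at 21.8 and 29.0 before and 18.3 and 14.1 after irradiation in *Trp53*-/- cells and up to 74.6 in irradiated *Trp53*+/+ cells (adjusted p = 0.000154).

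With 0.518% of all genes called, no member was called in the lists of DNA damage sensing and repair (26 genes tested, median log2FC 0.04), the Bcl2 family and caspases (19 genes, -0.11), glucocorticoid-induced genes (12 genes, -0.01), oxidative stress (10 genes, -0.16) and clustered histones (58 genes, -0.19). The same held for the markers of T cells (17 genes, -0.07), B cells (10 genes, 0.19), plasma cells (6 genes, -0.15), monocytes and macrophages (18 genes, -0.45), dendritic cells (9 genes, -0.49), neutrophils and precursors (14 genes, 0.07), red cell precursors (21 genes) and stroma and endothelium (2 genes, -0.53). Of 26 olfactory and vomeronasal receptor genes tested, which serve as genes silent in spleen, *Olfr101* alone fell. Between 8.19% and 9.10% of the 1440 such genes in the files were above 0 in the 4 samples, against 8.33% to 9.31% in mock and 8.61% to 51.3% in irradiated *Trp53*+/+ samples. The irradiated *Trp53*+/+ samples enter the spread on which the 70 calls rest and every genotype difference. What their signal in silent genes did to either was not tested.

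Compared with *Trp53*+/+ non-B cells, which share no sample with these groups, the DEGs are given first, whose choice by their change in *Trp53*-/- cells favours a difference. The difference between the genotypes was significant for 23 of the 30 DEGs up and 32 of the 40 DEGs down (6.82% of all genes). The 32 include *Mmrn1*, which was listed at 0 in all *Trp53*+/+ samples. Over all genes it was significant for 922, and for 489, 299, 270 and 502 without mock 1, mock 2, irradiated 1 and irradiated 2 of the *Trp53*-/- samples, and for 594 and 526 without mock 2 and irradiated 3 of the *Trp53*+/+ samples. In *Trp53*+/+ cells 3 of the 30 rose and 1 fell, which was *Hsph1*, and 4 of the 40 fell (4.77% of all genes rose and 4.12% fell). The median log2FC of the DEGs up was 1.01 in *Trp53*-/- and 0.02 in *Trp53*+/+ cells, and that of the DEGs down -1.22 and -0.01. *Syne3*, which links the nucleus to the cytoskeleton, had among the DEGs down the smallest p of this difference, with 17.7 and 19.3 RPKM before and 8.72 and 8.53 after irradiation and a rise in *Trp53*+/+ cells from 21.5 to 23.3 in mock to 25.9 to 32.7 in irradiated samples (adjusted p = 0.00023).

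Taken from the other side, the choice of genes by their change in *Trp53*+/+ cells favours a difference as well. The 644 genes that rose there had a median log2FC of 0.97, against -0.01 in *Trp53*-/- cells. In the latter 49.4% had a log2FC above 0 and 3 were called up (0.222% of all genes). The 557 genes that fell had medians of -0.90 and -0.19. Of these, 67.7% lay below 0 in *Trp53*-/- cells, 4 were called down (0.296% of all genes) and 1, *Hsph1*, was called up. The difference between genotypes was significant for 250 of the 644 and 102 of the 557 (6.82% of all genes). Among the genes that rose with the smallest p for the difference, *Prrg4* had 2.92 and 3.16 RPKM before and 3.24 and 3.01 after irradiation in *Trp53*-/- cells, and 36.6 to 46.6 in irradiated *Trp53*+/+ cells. *Cdc42bpg*, *Dcxr*, *9030617O03Rik* and *Kank3* likewise reached between 29.0 and 68.8 in irradiated *Trp53*+/+ cells and stayed at or below 6.64 in irradiated *Trp53*-/- cells. Next to *Hsph1*, the genes that fell in *Trp53*+/+ cells with the smallest p for the difference were *Pprc1*, *Slc19a1* (the folate carrier), *Snora34* and *Klf16*, whose log2FC in *Trp53*-/- cells was 0.49, 0.63, 0.57 and 0.29, none of which passed.

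In *Trp53*-/- B cells the response was larger in number, with 1737 genes up (12.5% of the 13871 tested over both cell types) and 1365 down (9.84%). All 30 DEGs up of the non-B cells had a log2FC above 0 in B cells, where 23 rose, and 38 of the 40 DEGs down had one below 0, where 20 fell. Of the 1737 genes up in B cells, 91.2% had a log2FC above 0 in non-B cells, with a median of 0.32. Of the 1365 genes down, 92.2% had one below 0, with a median of -0.31. Among the 13512 genes tested in non-B cells, 47.6% lay above 0 and 52.4% below. Called in non-B cells were 23 of the genes up and 20 of the genes down, where 0.222% and 0.296% of all genes were called up and down. The non-B fraction carried B cell RNA, and samples of both cell types may share spleens, so that the responses may not be independent. The response itself differed between the cell types for 180 genes (1.3%), of which 3 were DEGs of the non-B cells, *Cdc25b*, *Neurl3* and *Fry*, all falling further in B cells. That count was 516 without irradiated 1 of the non-B cells and 0 in limma without any 1 of mock 1 and mock 2 of either cell type, irradiated 2 of the non-B cells or irradiated 1 of the B cells, with 1930 to 3144 genes at an unadjusted p under 0.05 in these fits. *Neurl3*, a ubiquitin ligase, went from 67.5 and 66.0 to 40.8 and 40.8 RPKM in non-B cells and from 66.8 and 67.8 to 19.5 and 22.6 in B cells (adjusted p = 0.0355). In the fit over the 8 *Trp53*-/- samples that gave these values, no gene was called in non-B cells (2532 at an unadjusted p under 0.05, smallest adjusted p 0.0779).

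**Figure D5:**
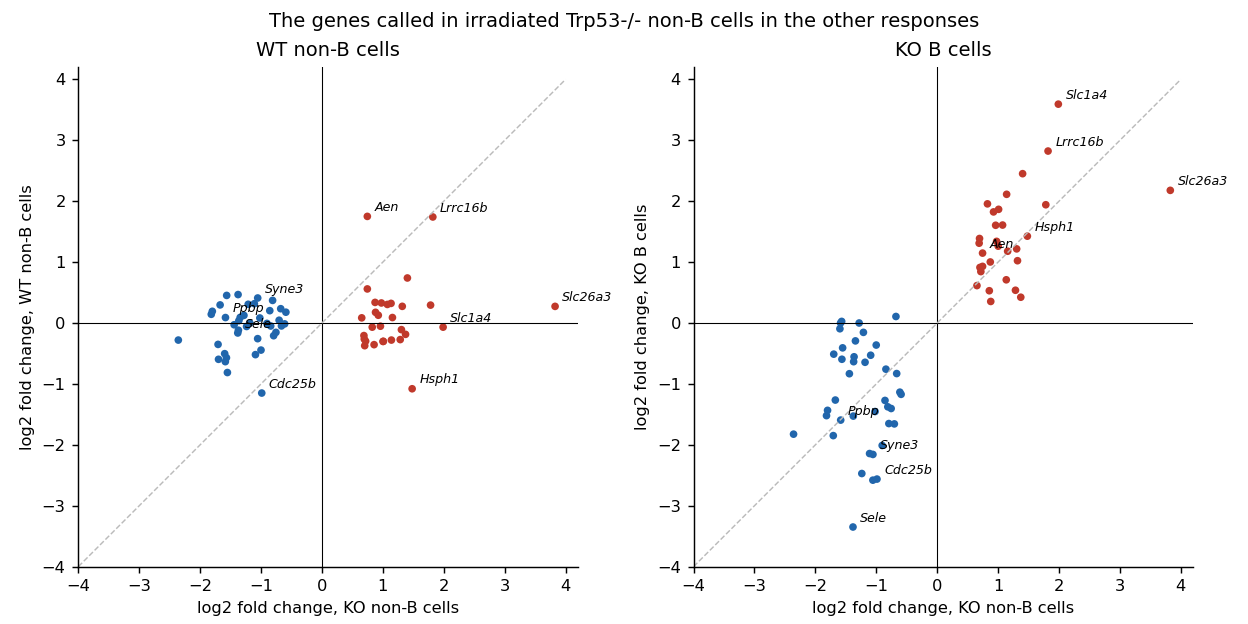
The 70 DEGs of irradiated *Trp53*-/- (KO) non-B cells, red where they rose and blue where they fell, by their log2 fold change there (x axis) and in *Trp53*+/+ (WT) non-B cells (left) or KO B cells (right, y axes), with the line of equal change dashed. In WT cells most lie near 0 (medians 0.02 and -0.01), and in KO B cells 68 of 70 lie on the same side of 0.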

How the data were processed

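RNA of B and non-B cells of the spleen was sequenced after ribosomal RNA depletion. Per the methods, the authors hid base calls below a quality of 20, mapped the reads on mm9 by TopHat (TopHat2 2.0.8 in the submitters' processing notes), collapsed duplicated reads, and counted on UCSC genes by featureCounts (1.4.5). They deposited RPKM values, 1 per gene and sample, which do not give counts. The study tested counts with DESeq2, which RPKM does not allow.

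Here log2(RPKM + 0.5) was fitted with limma 3.58.1 (R 4.3.3, moderated with a mean-variance trend) over 12 non-B samples in 4 group means, and over 8 *Trp53*-/- samples for the comparison with B cells, with Benjamini-Hochberg adjustment over all genes tested. Depth was estimated from the steps between low RPKM values, of which 56.3% to 64.0% lay within 0.1 of a whole read, so no count test was run. Gene positions came from the mm9 annotation (19923 of 21671 symbols matched), and promoter sequences from RefSeq (GRCm38.p6). The fits were run on simulated data with equal and independent noise in all genes, which checks the code and not the calls in these samples.

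The members and gene lists were chosen with earlier results of these data known. Named were *Trp53*, p53 targets, the 15 DEGs of largest change in each direction, up to 5 genes of each list by p, DEGs with the smallest p for the difference between cell types or genotypes (5 each), and the 5 genes of each direction with the smallest p for the genotype difference that changed in *Trp53*+/+ cells. Genes named beyond this rule were chosen after their values were seen. Some genes are not reported here. Alternatives changed the pseudocount, filter, scaling, samples, thresholds and the replicate block.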

Additional observations from a re-analysis of the deposited data

Results flagged for a closer look

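The response to irradiation differed between *Trp53*+/+ and *Trp53*-/- non-B cells, by the test of the difference in limma (adjusted p under 0.05), for the following named genes, and the value given is the log2FC in *Trp53*+/+ minus that in *Trp53*-/- cells. Among p53 targets and other genes of the *Trp53*+/+ response it was 3.60 for *Cdkn1a*, 1.22 for *Mdm2*, 1.11 for *Bax*, 1.01 for *Aen*, 3.30 for *Prrg4*, 3.01 for *Cdc42bpg*, 3.46 for *Dcxr*, 2.65 for *9030617O03Rik*, 3.20 for *Kank3*, 2.15 for *Mx1* and -4.64 for *Car1*, a carbonic anhydrase of red cells. It was -0.86 for *Trp53* itself. For genes that fell in *Trp53*+/+ cells it was -2.56 for *Hsph1*, -1.22 for *Pprc1*, -1.49 for *Slc19a1*, -1.20 for *Snora34* and -1.32 for *Klf16*.

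For other folding and ribosome-assembly genes it was -1.21 for *Dnajb1*, -0.97 for *Dnaja1*, -1.02 for *St13*, -1.07 for *Cct3*, -1.31 for *Nop16*, -0.96 for *Nop2*, -1.31 for *Rrp12*, -0.89 for *Rrp1b*, -1.42 for *Pus7* and -1.56 for *Snora64*. For transporters and metabolic enzymes it was -3.55 for *Slc26a3*, -2.06 for *Slc1a4*, -0.80 for *Shmt1*, -1.08 for *Shmt2* and -0.77 for *Aoc2*. It was -1.49 for *1700016C15Rik*, -1.41 for *Astl*, -1.56 for *Nrn1l*, -1.07 for *Naalad2* and -0.57 for *Cbll1*.

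For genes of platelets it was 1.67 for *Ppbp*, 1.97 for *Tubb1*, 1.60 for *Pf4*, 1.96 for *Gng11* and 1.99 for *Myl9*. It was 1.84 for *Clec1b*, whose exons overlap those of *Clec9a*. It was 1.18 for *Mmrn1*, which only mirrors the fall in *Trp53*-/- cells. All *Trp53*+/+ samples were listed at 0 for *Mmrn1*, so that no genotype difference can be read from it. For further genes that fell in *Trp53*-/- cells or tended lower it was 1.00 for *Cdh1*, 1.00 for *Gzmb*, 2.08 for *Slco2b1*, 1.35 for *Jup*, 1.41 for *Tnfsf12*, 1.22 for *Sele*, 1.47 for *Syne3*, 0.80 for *Fry*, 0.75 for *Neurl3*, 0.58 for *Tm6sf1*, 0.77 for *Iffo1*, 1.43 for *Wdr95*, 1.43 for *Zcchc24* and 2.02 for *Olfr101*.

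Between the cell types of *Trp53*-/- mice, the log2FC in B cells minus that in non-B cells was -1.57 for *Cdc25b*, -1.52 for *Fry* and -0.95 for *Neurl3* (adjusted p under 0.05 in limma). Of 28 groups of 4 samples examined for a sample apart from the rest, 1 had one, *Mdm2* in irradiated *Trp53*+/+ non-B cells, where a sample at 70.8 RPKM lay below the others at 73.3 to 73.4. Chance alone sets a sample apart in about 1 of 20 groups.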

How the results depend on the processing

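The direction of the 70 DEGs is no measure of stability, since both irradiated samples lay beyond both mock samples for each of them, so that leaving out a sample cannot turn it. Their number was 0 with the 4 samples alone, 5 without the irradiated *Trp53*+/+ samples and 0 over the 8 *Trp53*-/- samples. It was 5 at an adjusted p under 0.01, 281 at one under 0.1 and 44 beyond a log2FC of 1, and it ranged from 3 to 60 with 1 of the 12 samples left out. The pseudocount, low-value filter and scaling gave 54 to 94.

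Deviations of same-numbered *Trp53*-/- samples from their group means correlated at -0.26, and those of *Trp53*+/+ samples at 0.16 to 0.34, where 2 of 4 mock samples correlated best with another number. The numbers were therefore not taken to pair the samples. With the replicate number as a block there were 18 DEGs (14 of the 70) and 25 genes with a cell type difference, and with the numbers crossed (chosen after seeing the data) 171 DEGs. The 2 pairs shared the sign of 67.7% of genes when crossed. Without *Trp53*+/+ mock 1 and 2, also chosen afterwards, there were 69 DEGs.

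With 1 sample left out the genotype difference was significant for 270 to 1275 genes and the cell type difference for 0 to 516 (444 with RPKM above 1 in all 8 samples). List medians then ranged from 0.0093 to 0.30 for NF-kB targets, 0.11 to 0.32 for immediate early genes, 0.069 to 0.19 for glucocorticoid-induced genes, -0.15 to -0.027 for the Bcl2 family, -0.019 to 0.22 for ribosomal proteins, -1.04 to 0.12 for G2 and mitosis, -1.56 to 1.05 for red cells, -0.46 to 0.32 for G1/S, -0.73 to -0.16 for monocytes, -0.83 to -0.21 for dendritic cells, 0.38 to 0.70 for chaperones, 0.20 to 0.49 for ATF4 genes and -1.32 to -0.70 for platelets. The platelet median was -1.31 and -0.79 with pseudocounts of 0.1 and 1, the Bcl2 family's -0.078 with median-ratio scaling, and that of olfactory receptors 0.20 with quantile normalization. *Mdm2* changed sign to 0.00066 with median-ratio scaling and ranged from -0.075 to 0.016 with 1 sample left out, and *Prrg4* from -0.015 to 0.085, which crosses 0 without mock 1 or irradiated 1 (-0.011). Causes were not tested. With 2 samples a group and RPKM without counts, changes in genes of a few reads could not be resolved.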
